A study of Gossypium barbadense and Gossypium hirsutum with 4 samples.

Results

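Homoeologous pair 8 of tetraploid cotton is chromosome A08, from the A subgenome, and its counterpart D08, from the D subgenome. Every region called as enriched for the centromeric histone CENH3 on these chromosomes was described, which gave 13581 of the 156610 regions called in 2 species (8.67%). The regions are called islands. Gossypium barbadense contributed 5798 of its 67639 islands (8.57%), and Gossypium hirsutum 7783 of its 88971 (8.75%). Members were chosen by chromosome name alone, so neither the position nor the strength of an island entered the choice.

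The study asked where the centromeres lie in the cultivated cottons G. barbadense, in a list named Hai7124, and G. hirsutum, in a list named TM_1. Each species contributed 1 ChIP library, made from leaf harvested 4 weeks after planting with an antibody against CENH3, and 1 input library from leaf of the same age without antibody. In all 4 libraries chromatin came from nuclei digested with micrococcal nuclease (MNase), an enzyme that cuts the DNA between nucleosomes, and was sequenced after a NEBNext library preparation. There were no replicates and no CENH3-depleted control, and the number of plants behind each library was not given in the sources used here. No difference below has a test, and intervals are 95% exact binomial (Clopper-Pearson) intervals that cover counting error only.

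CENH3 takes the place of canonical histone H3 in the nucleosomes of an active centromere, where it is the base on which the kinetochore is built. The kinetochore is the protein structure that spindle microtubules hold during cell division, and a plant chromosome of the usual kind carries CENH3 in a single block. Plant centromeres are often rich in satellite repeats and retrotransposons, and their sequence can change fast between related species. A and D homoeologues descend from separate diploid ancestors that were joined in the tetraploid, and they keep much of their gene order. The files hold islands without sequence or annotation, so no gene, exon, intron or repeat was assigned to any position. Coordinates are 1-based on each list's own assembly, whose build is not given in the sources used here, and chromosomes are compared between species by relative position, the coordinate as a percentage of the last island's end.

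In G. barbadense, A08 carried 3641 islands up to 120.758 Mb and D08 carried 2157 islands up to 67.6606 Mb. In G. hirsutum, A08 carried 5812 islands up to 125.048 Mb and D08 carried 1971 islands up to 68.8252 Mb. A08 had the farthest last island of the 26 chromosomes in G. barbadense. The G. barbadense islands held 194521 reads of the ChIP library on A08 and 122981 on D08, beside 120988 reads of the input library on A08 and 57500 on D08. The G. hirsutum islands held 383083 ChIP reads on A08 and 135676 on D08, beside 214240 input reads on A08 and 81535 on D08. Such sums count reads inside islands only, so they are not sequencing depths. Islands covered 4.44% of A08 and 4.87% of D08 in G. barbadense, against 9.54% of A08 and 6.18% of D08 in G. hirsutum.

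The strength of an island was expressed as its scaled ratio, the ChIP reads divided by the input reads (with a floor of 3 reads) and multiplied by a library constant of 1.64 in G. barbadense or 1.20 in G. hirsutum. The median scaled ratio was 2.24 on A08 and 2.97 on D08 in G. barbadense, and 2.22 on A08 and 2.12 on D08 in G. hirsutum. Strong islands, of scaled ratio 4 or more, numbered 747 on A08 (20.5%) and 818 on D08 (37.9%) in G. barbadense, where they made up 28.6% of the whole list. In G. hirsutum there were 567 on A08 (9.76%) and 145 on D08 (7.36%), with 9.75% over the whole list. At a ratio of 8 or more, G. barbadense had 399 islands on A08 (11.0%) and 506 on D08 (23.5%), beside 16.5% of its list. G. hirsutum had 149 on A08 (2.56%) and 23 on D08 (1.17%), beside 2.66% of its list. In G. barbadense the D chromosome therefore lay above its list's share and A08 below it, while in G. hirsutum D08 lay below. The G. barbadense split was not particular to pair 8. Strong islands made up 37.0% to 45.6% of islands on its D chromosomes and 19.5% to 25.5% on its A chromosomes.

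Each chromosome was scanned in bins of 100 kb for its highest site, the stretch where island length weighted by log2 of the scaled ratio was greatest. The site is chosen by signal, so the ratios inside it describe the site and do not test it. G. barbadense A08 had its site at 48.7 to 50.2 Mb, with a midpoint at 40.9% of the chromosome and an arm ratio (long over short) of 1.44. G. barbadense D08 had its site at 26.0 to 27.9 Mb, with a midpoint at 39.8% and an arm ratio of 1.51. The relative midpoints of the homoeologues thus lay 1.12 percentage points apart in G. barbadense. G. hirsutum A08 had its site at 51.3 to 52.6 Mb, with a midpoint at 41.5% and an arm ratio of 1.41, which is 0.594 points from that of G. barbadense A08. G. hirsutum D08 had its highest site at 15.1 to 15.7 Mb, with a midpoint at 22.4%. That is 17.5 points from the site of G. barbadense D08 and 19.2 points from that of G. hirsutum A08.

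**Figure D1:**
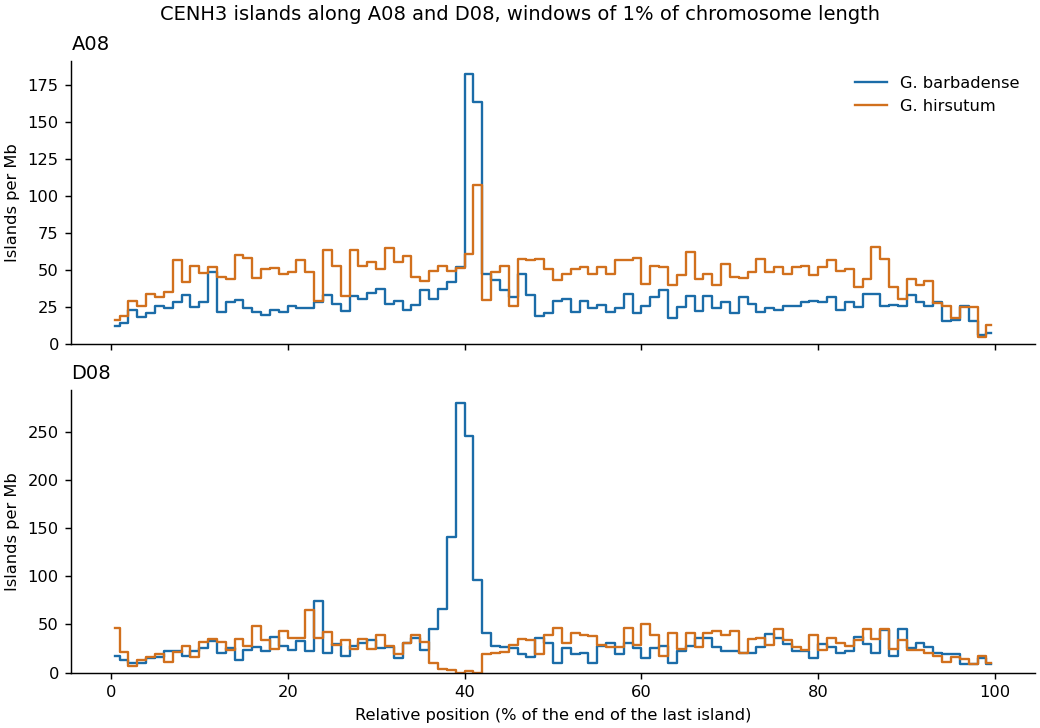
Islands per Mb (y axis) in windows of 1% of chromosome length (x axis, relative position) on A08 (top) and D08 (bottom), G. barbadense in blue and G. hirsutum in orange. On A08 both species peak near 41%, while on D08 the G. barbadense peak near 40% lies over the stretch where G. hirsutum has 5 islands.

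The G. barbadense A08 site held 336 islands that covered 39.9% of its 1.5 Mb. They carried 51905 ChIP and 4301 input reads, a pooled ratio of 19.8 (19.2 to 20.4). Of these islands 322 were strong (95.8%) and 297 had a ratio of 8 or more, with a median scaled ratio of 21.3. The site took up 1.24% of the chromosome and held 43.1% of its strong islands, 74.4% of its islands of ratio 8 or more and 26.7% of its ChIP reads in islands, but 3.55% of the input reads. Its smoothed signal was 14.8 times that of the next site, at 13.75 Mb.

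The G. barbadense D08 site was the widest of the 26 in that species, at 1.9 Mb, and held the most islands, 443, which covered 38.9% of it. They carried 49173 ChIP and 3780 input reads, a pooled ratio of 21.3 (20.6 to 22.0). Strong islands numbered 424 (95.7%), islands of ratio 8 or more 376, and the median scaled ratio was 18.6. The site took up 2.81% of D08 and held 51.8% of the strong islands, 39.98% of the ChIP reads and 6.57% of the input reads. Its signal was 6.05 times that of the next site, at 16.05 Mb. In the other 24 G. barbadense sites the pooled ratio ran between 16.5 and 33.9 with a median of 24.4, so both members of pair 8 were in the lower part of that range, A08 at rank 23 and D08 at rank 20 from the top.

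The G. hirsutum A08 site held 137 islands that covered 19.2% of its 1.3 Mb, with 13364 ChIP and 1652 input reads and a pooled ratio of 9.74 (9.25 to 10.3). Of these islands 131 were strong (95.6%) and 100 reached a ratio of 8, with a median of 11.0. The pooled ratio was the fourth highest of the 26 G. hirsutum sites, where the other 24 ran between 1.49 and 11.2 with a median of 7.29. The site held 23.1% of the strong islands of A08 and 67.1% of those of ratio 8 or more, but 3.49% of the ChIP reads and 0.771% of the input reads. The site on G. barbadense A08 was denser, with 224 islands per Mb against 105.4 per Mb in G. hirsutum, and its pooled ratio was higher in the separately normalized lists.

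G. hirsutum D08 had no site of this strength. Its highest site held 41 islands with 5491 ChIP and 2220 input reads, a pooled ratio of 2.98 (2.83 to 3.13). That was rank 20 from the top of the 26 G. hirsutum sites, so the highest sites of 6 other chromosomes had lower ratios. Of the 41 islands, 6 were strong (14.6%, interval 5.57% to 29.2%) and 1 reached a ratio of 8. It was 0.6 Mb wide and covered by islands over 28.8% of its length, and it held 4.14% of the strong islands of the chromosome. Its signal was 2.28 times that of the next site, in the first 100 kb of the chromosome. A margin of 2 times or more over the next site was kept in 7 of the 11 settings tried, the reported one included. In the setting of the 7 that kept only islands of ratio 8 or more, the site rested on 1 island.

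At the sites other than that of G. hirsutum D08, most input counts were small and even. Among islands with 1 to 10 input reads, the count was even in 150 of 159 (94.3%) at the G. barbadense A08 site, in 195 of 206 (94.7%) at the D08 site, and in 65 of 69 (94.2%) at the G. hirsutum A08 site. Outside the sites the share was 72.2% to 76.9%, and ChIP counts of up to 40 reads outside the sites were even in 53.2% to 54.7% of islands. If input reads are taken as pairs, the ratios keep their values and the intervals widen, to 19.0 to 20.7 for G. barbadense A08, 20.4 to 22.3 for D08, 9.08 to 10.5 for G. hirsutum A08 and 2.79 to 3.18 for D08. All other intervals treat each read as independent, or each island where the value is a share of islands.

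Within the sites the ratio was highest near the middle. On G. barbadense A08, 12 consecutive bins of 100 kb, from 0.6 Mb before to 0.6 Mb after the midpoint, had pooled ratios of 8.34 to 68.4 with a median of 28.4. On G. barbadense D08, 14 consecutive bins from 0.6 Mb before to 0.8 Mb after the midpoint had ratios of 10.2 to 60.8 with a median of 40.3. On G. hirsutum A08, 10 bins from 0.5 Mb before to 0.5 Mb after the midpoint had ratios of 8.27 to 14.9 with a median of 11.1. The limit of 8 for these runs was chosen after the values had been seen.

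The start-side edges of the runs differed between D08 and A08 in G. barbadense. In the 0.5 Mb on the start side, G. barbadense D08 had 76 islands with a ratio of 5.06 (4.76 to 5.38) that covered 30.2% of the interval, and A08 had 49 islands with a ratio of 2.70 (2.55 to 2.86) that covered 19.5%. On the end side D08 had 51 islands with a ratio of 3.44 (3.20 to 3.70) and A08 had 49 islands with a ratio of 3.21 (3.01 to 3.42). D08 thus had a shoulder of intermediate ratio toward the start of the chromosome, and on the end side the intervals of the homoeologues overlapped. In G. hirsutum A08 the start side had 26 islands with a ratio of 3.05 (2.81 to 3.32) and the end side had 12 with a ratio of 3.23 (2.84 to 3.69).

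**Figure D2:**
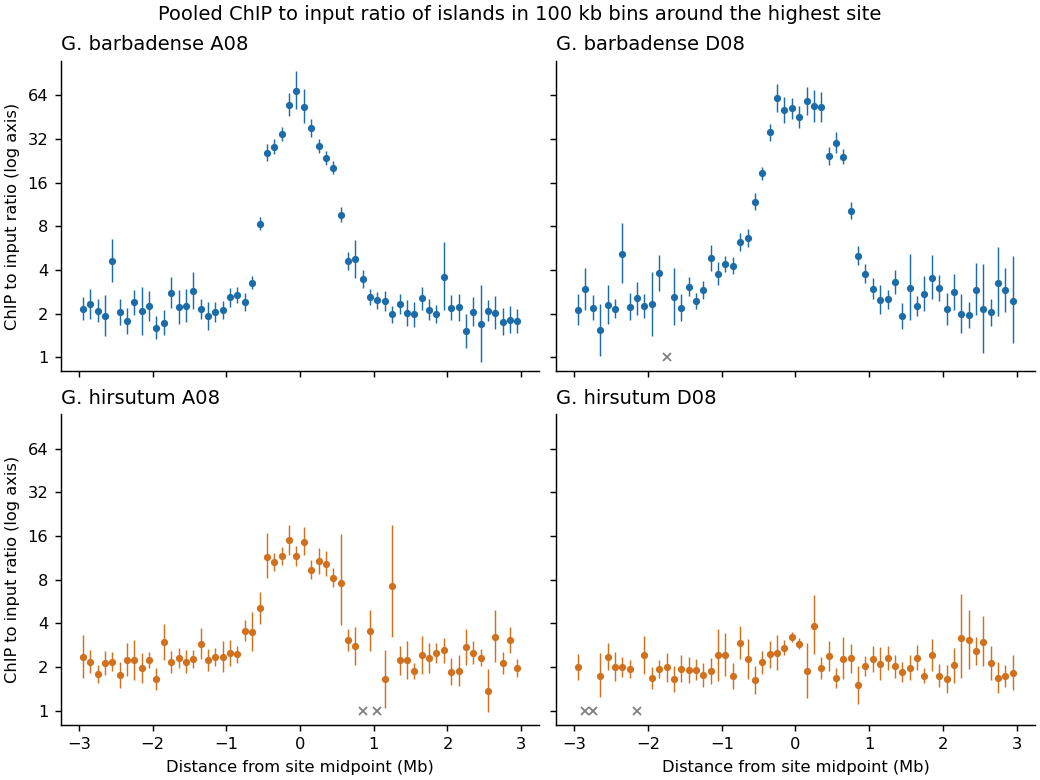
Pooled ChIP to input ratio (log axis) of the islands in each 100 kb bin against distance from the site midpoint, with 95% exact binomial intervals, and grey crosses at 1 for bins with no island. The G. barbadense sites reach 68.4 on A08 and 60.8 on D08, G. hirsutum A08 reaches 14.9, and G. hirsutum D08 shows no such rise at its highest site.

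The islands of highest ratio in the sites, among those of 40 or more ChIP reads, had few or no input reads on A08 of both species and on G. barbadense D08. On G. barbadense A08 the island at 49328801 to 49333600 had 306 ChIP and 4 input reads, a scaled ratio of 125 (48.5 to 463). The longest island of that site, 22000 bp at 49207201 to 49229200, had 3316 ChIP and 172 input reads, a ratio of 31.6 (27.1 to 37.1). On G. barbadense D08 the island at 27531801 to 27535600 had 413 ChIP and 4 input reads, a ratio of 169 (65.6 to 624), and only an island with 2 input reads, at 26697401 to 26700000 with 330 ChIP reads, ranked above it. The longest island of the D08 site, 19200 bp at 26888401 to 26907600, had 2547 ChIP and 78 input reads, a ratio of 53.5 (42.7 to 67.9). The longest islands at both sites thus had ratios well above 8.

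On G. hirsutum A08 the top islands had no input reads. The first, at 52000401 to 52001200, had 100 ChIP and 0 input reads, so its scaled ratio was 40.1 with input set to the floor of 3 reads, and the lower limit of its interval was 32.04. The longest, 9200 bp at 51644801 to 51654000, had 458 ChIP and 50 input reads, a ratio of 11.0 (8.22 to 15.1). On G. hirsutum D08 the top island of the highest site, at 15391401 to 15395600, had 129 ChIP and 19 input reads, a ratio of 8.17. The longest there, 14200 bp at 15422201 to 15436400, had 493 ChIP and 203 input reads, a ratio of 2.92 (2.48 to 3.46). A long island of the highest D08 site in G. hirsutum thus had a ratio below that of the long islands at the other 3 sites.

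**Figure D3:**
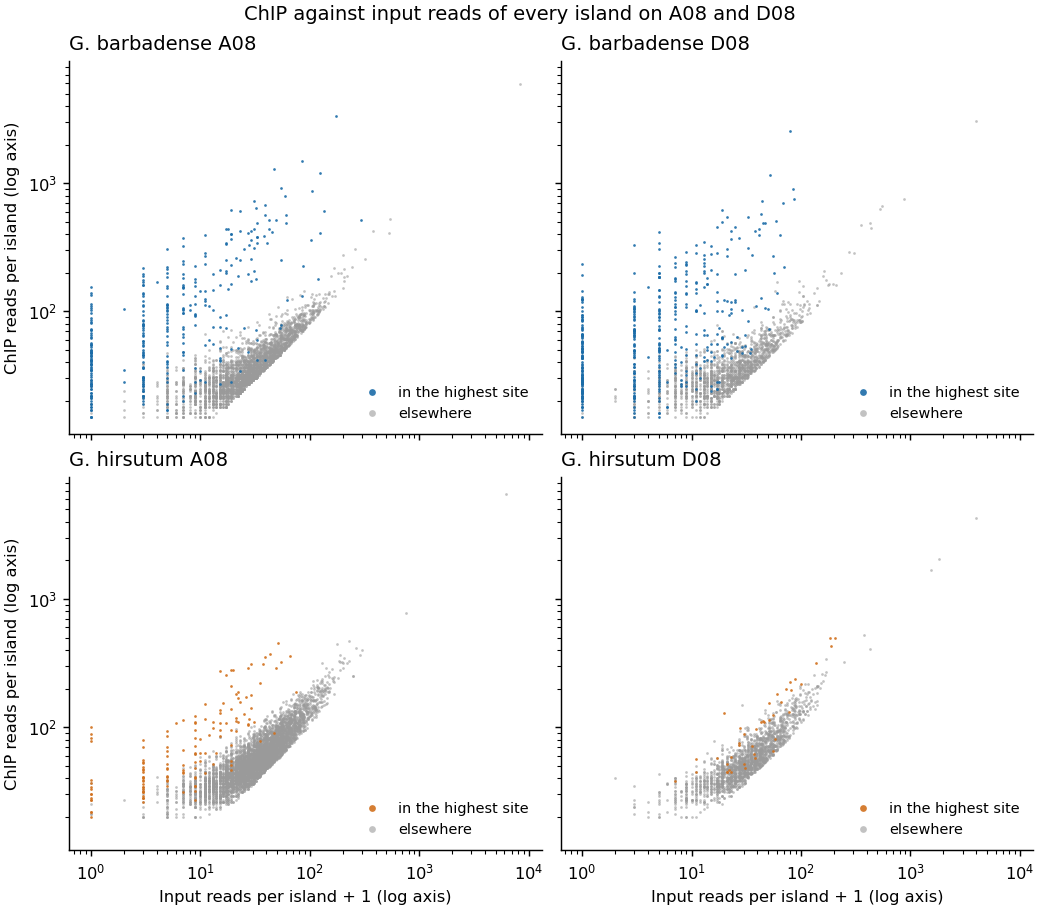
ChIP reads (y, log axis) against input reads plus 1 (x, log axis) of every island on A08 (left) and D08 (right), G. barbadense on top in blue and G. hirsutum below in orange, with islands outside the highest site in grey. Site islands lie above and left of the grey cloud except on G. hirsutum D08, where they lie along its upper edge, and the points at the far upper right of the grey clouds are the islands at the first base.

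The stretch of G. hirsutum D08 that matches the G. barbadense D08 site in relative position was nearly empty. The window within 2.5% of chromosome length of 39.8%, at 25.693 to 29.134 Mb, held 5 islands, or 1.45 per Mb, with 213 ChIP and 100 input reads and a ratio of 2.56 (2.01 to 3.29). None was strong, and the ratios ran between 2.26 and 3.89. The same relative window around the A08 site held 372 islands in G. hirsutum with a pooled ratio of 3.49, 158 of them strong. Among windows of 5% of chromosome length away from the chromosome ends, the one with the fewest islands per Mb in the whole G. hirsutum list was this stretch of D08. The emptiest such window of G. barbadense D08, at 50% to 55% of the chromosome, held 58 islands, or 17.1 per Mb.

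The sparse stretch ran for 3.61 Mb between islands ending at 25555000 and starting at 29166201, and 7.6 kb of it lay in islands. Its longest intervals without an island were 1191 kb, from 26546401 to 27737400, and 1182.6 kb, from 27738801 to 28921400. The small island between them, at 27737401 to 27738800, had 42 ChIP and 13 input reads, a ratio of 3.89. In the 5 Mb on each side, rings of 1 Mb held 15 to 42 islands with pooled ratios of 2.03 to 2.40. The lists give no read count outside islands, so input coverage in the stretch has no value here, and whether reads could be placed in it was not tested. Its bounds were drawn after the island positions had been seen.

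In the reverse direction, the G. barbadense D08 window at the relative position of the G. hirsutum D08 site, 22.4%, held 117 islands with a ratio of 2.01 (1.95 to 2.07) and 18 strong islands. The G. barbadense site lay outside it. The highest G. hirsutum D08 site therefore matched a G. barbadense stretch of low ratio, and the G. barbadense site matched a G. hirsutum stretch with few islands. The G. barbadense stretch of low ratio was not sparse throughout. It held the next site of G. barbadense D08, at 16.05 Mb, where islands covered 38.8% of 0.5 Mb with a ratio of 1.89.

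Near 22% to 24% of D08 both species had a dense run of long islands with a pooled ratio under 4. When islands less than 20 kb apart were chained, a distance chosen after the values had been seen, G. barbadense D08 had a block of 43 islands at 15799601 to 16154200, centred at 23.6%. Islands covered 53.3% of its 355 kb, with 5878 ChIP and 5110 input reads, a ratio of 1.89 (1.82 to 1.96). The G. hirsutum D08 block had 34 islands at 15246801 to 15481200, centred at 22.3%, which covered 68.1% of its 234 kb with 5109 ChIP and 2023 input reads, a ratio of 3.04 (2.89 to 3.20). Islands outside the D08 site had a pooled ratio of 2.25 in G. barbadense and 1.98 in G. hirsutum. The G. barbadense block lay below its value and the G. hirsutum block above its own. The G. hirsutum block lay inside the highest site of its chromosome, which was chosen by signal, and the G. barbadense block lay outside its site. The ratio of the G. hirsutum block therefore describes a chosen stretch and is no test of a difference between the species. The longest islands of the blocks were 20600 bp in G. barbadense and 14200 bp in G. hirsutum. Among blocks with a ratio under 4, ranked by covered length, the G. barbadense block was number 5 of 25170 and the G. hirsutum block number 6 of 30030.

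Input density separated the blocks. The G. barbadense block had 27.0 input reads per kb of island, against 21.0 per kb in the D08 islands outside the site. In the G. hirsutum block the value was 12.7 per kb, against 19.4 per kb outside the site. The choice of the G. hirsutum site by its ratio favours islands of low input, so this contrast is no test. A smaller block of this kind lay on A08, at 13810001 to 13934000 in G. barbadense (11.5% of the chromosome, 20 islands, ratio 1.90, interval 1.78 to 2.03) and at 13846401 to 14010000 in G. hirsutum (11.1%, 13 islands, ratio 2.38, interval 2.21 to 2.56). Whether the blocks of the 2 species hold the same sequence was not tested.

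**Figure D4:**
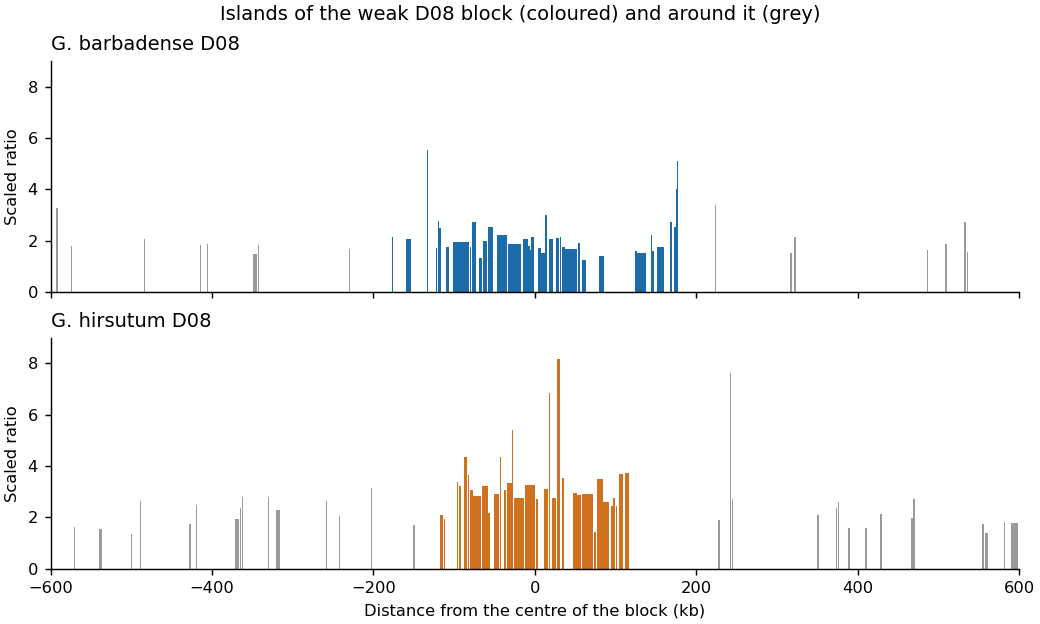
Scaled ratio (y axis) and extent (bar width) of islands against distance in kb from the block centre, G. barbadense D08 on top with block islands in blue, G. hirsutum D08 below with block islands in orange, other islands in grey. Most block islands lie near 2 in G. barbadense and near 3 in G. hirsutum.

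Away from the highest sites the pooled ratios were low, though strong islands were present. They made up 12.9% of islands outside the site on A08 and 23.0% on D08 in G. barbadense, against 28.6% of the whole list. In G. hirsutum they made up 7.68% on A08 and 7.20% on D08, against 9.75% of the list. The pooled ratio outside the site was 2.004 on A08 and 2.25 on D08 in G. barbadense, and 2.09 on A08 and 1.98 on D08 in G. hirsutum. Flanks within 5 Mb of a site had 45.2 islands per Mb on A08 and 35.9 on D08 in G. barbadense, against 27.4 and 25.9 per Mb in the rest of the arms of A08 and D08. In G. hirsutum the flanks had 46.6 per Mb on A08 and 34.2 on D08, against 48.9 and 28.6 per Mb in the rest of the arms. The rest of G. hirsutum D08 includes the sparse stretch of 3.61 Mb with 5 islands, which lowers its density. The first 1 Mb on either side of the site together held 145 islands on G. barbadense A08 and 137 on D08, against 88 and 72 in the next 1 Mb. On G. hirsutum A08 the first 1 Mb on the start side held 60 islands and that on the end side 26.

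The share of strong islands outside the sites was compared between the chromosome ends and the rest of the arms. On G. barbadense A08 they made up 28.97% of islands in the first 5% of the chromosome (20.6% to 38.5%) and 34.9% in the last 5% (24.9% to 45.9%), against 11.8% in the rest of the arms (10.6% to 13.1%). On G. barbadense D08 the shares were 26.7% at the start (14.6% to 41.9%), 31.7% at the end (18.1% to 48.1%) and 21.7% in the rest (19.5% to 24.1%), where the intervals overlap. On G. hirsutum A08 the shares were 7.79% at the start and 9.43% at the end, against 7.58% in the rest, with overlapping intervals. On G. hirsutum D08 they were 12.5% at the start and 6.52% at the end, against 7.48% in the rest, again with overlapping intervals. Strong islands per Mb at the start and end were 5.13 and 4.97 on G. barbadense A08, against 3.23 in the rest. On G. barbadense D08 they were 3.55 and 3.84 against 5.63, and on G. hirsutum A08 1.92 and 1.60 against 3.70. On G. hirsutum D08 they were 2.62 and 0.872 against 2.14. Among the 4 chromosomes, only G. barbadense A08 had intervals at both ends that lay above that of the rest. The intervals treat islands as independent, so this is no test. On that chromosome 1 run of islands, at 116500201 to 116707200, held 9 of the 30 strong islands of the last 5%.

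**Figure D5:**
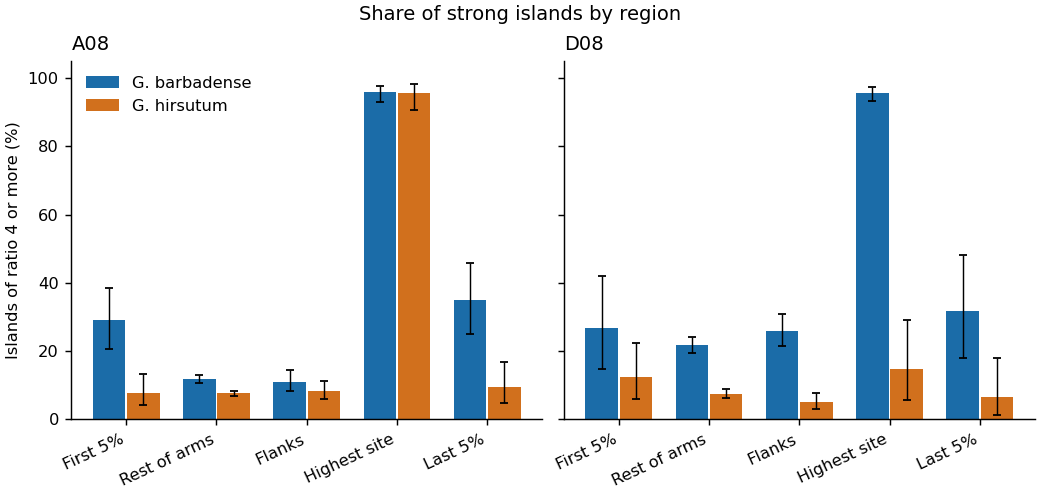
Share of islands with a scaled ratio of 4 or more (y axis) by region of A08 (left) and D08 (right), G. barbadense in blue and G. hirsutum in orange, with 95% exact binomial intervals as error bars. About 96% of islands in the highest site are strong on A08 of both species and on G. barbadense D08, and 14.6% are on G. hirsutum D08.

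Among islands of 40 or more ChIP reads, the strongest more than 2 Mb from the sites were short and rested on few input reads. On G. barbadense A08 the first, at 75282001 to 75283400, had 47 ChIP and 4 input reads, a ratio of 19.3 (7.04 to 73.6). On G. barbadense D08 it lay at 62917801 to 62918600, with 51 ChIP and 4 input reads, a ratio of 20.9 (7.68 to 79.6). On G. hirsutum A08 it lay at 24623201 to 24623600, with 41 ChIP and 3 input reads, a ratio of 16.5 (5.25 to 83.1). On G. hirsutum D08 the strongest was at 57797601 to 57798200, with 40 ChIP reads and 1 input read. These islands were 400 to 1400 bp long. The islands of highest ratio inside the sites also had few or no input reads. They were 4800 bp long on G. barbadense A08 (4 input reads), 2600 bp on G. barbadense D08 (2) and 800 bp on G. hirsutum A08 (0).

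The largest excess of ChIP over scaled input reads outside the sites belonged in each list to the island at the first base of the chromosome. On G. barbadense A08 it was 18000 bp long with 5946 ChIP and 8417 input reads, a ratio of 1.16, and on D08 it was 12200 bp long with 3036 ChIP and 4004 input reads, a ratio of 1.24. On G. hirsutum A08 it was 15400 bp long with 6612 ChIP and 6152 input reads, a ratio of 1.29, and on D08 it was 14400 bp long with 4323 ChIP and 3956 input reads, a ratio of 1.32. Input was dense in these islands, and their ratios lay below the medians of all 4 chromosomes. An island inside G. hirsutum D08, at 42081801 to 42084000, had a similar makeup, with 2066 ChIP and 1843 input reads in 2200 bp and a ratio of 1.35.

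The profiles of the species were compared over 100 relative windows as a description. For islands per Mb, Pearson's r was 0.499 and Spearman's rho 0.392 on A08, and r was -0.389 and rho 0.007 on D08. With the windows within 2.5% of the G. barbadense site left out, r was 0.542 and rho 0.385 on A08, and r was 0.162 and rho 0.174 on D08 (95 windows each). With G. hirsutum reversed, the values over all windows were r 0.240 and rho 0.266 on A08, and r 0.213 and rho 0.193 on D08. The negative r of D08 therefore rested on the windows where the G. barbadense site faced the sparse stretch of G. hirsutum. All windows of a species come from the same pair of libraries, and no p-value was computed.

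Outside the sites A08 had more islands per Mb than D08 in both species. In G. barbadense the densities were 27.7 per Mb on A08 and 26.1 on D08, a ratio of 1.06, where the other 12 pairs ran between 0.967 and 1.26. In G. hirsutum they were 45.9 per Mb on A08 and 28.3 on D08, a ratio of 1.62, where the other pairs ran between 1.49 and 1.68. For strong islands the G. barbadense densities were 3.56 per Mb on A08 and 5.99 on D08, a ratio of 0.595 (other pairs 0.459 to 0.701). In G. hirsutum they were 3.52 per Mb on A08 and 2.04 on D08, a ratio of 1.73 (other pairs 1.34 to 2.38). The A to D order of strong islands was thus opposite in the species, and pair 8 lay inside the range of the other pairs for each of these values.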

How the data were processed

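Trimmomatic, Bowtie2 and SICER were used upstream per the submitters' processing notes, without versions. Settings are recorded in the list names: a SICER window of 200 bp, a gap of 400 bp, a false discovery rate of 0.01, and the tag uniq. Whether that tag means uniquely placed reads was not tested, and repeats may then hold no island. The lists have no header, and columns were read in SICER's usual order. The authors deposited raw read counts of ChIP and input per island, a p-value and a false discovery rate (q-value) for their difference, and a fold, the ChIP to input ratio times a library constant. The constant was recovered from these columns (1.64 and 1.20).

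A site was the run of 100 kb bins, smoothed over 5 bins, at or above the median plus 25.0% of the distance from median to maximum, with gaps of 2 bins bridged. Bin values were island overlap times log2 of the scaled ratio, divided by bin length. A site was distinct when its maximum was at least 2 times any bin more than 2 Mb outside it. An island belongs to a site by its midpoint, and ends of chromosomes are taken at the last island, a lower bound of the length.

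Per list and chromosome, among islands of 40 or more ChIP reads, the named ones follow a rule: the 3 of highest ratio and the longest in the site, and, more than 2 Mb outside it, the 3 of highest ratio and the 2 of largest excess of ChIP over scaled input. Islands of the sparse stretch and the blocks were named after their values were seen. Members, lists and thresholds were chosen with earlier results of these data known. Alternatives changed the bin value, islands used, bin size, smoothing, threshold, membership and input floor. Python 3.11.15, numpy 2.4.6, pandas 2.3.3, scipy 1.17.1 and matplotlib 3.10.9 were used, and the site search was tested on simulated data. The simulated sites had more islands and a higher ratio than either G. hirsutum site, so the search was not tested on sites that weak.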

Additional observations from a re-analysis of the deposited data

Results flagged for a closer look

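Outside the highest sites, strong islands per Mb on A08 over D08 came to 0.595 in G. barbadense (3.56 against 5.99 per Mb) and to 1.73 in G. hirsutum (3.52 against 2.04 per Mb). The values lie on opposite sides of 1 in the species. The difference was not tested, since each species had 1 ChIP library and the lists were normalized separately.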

How the results depend on the processing

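The midpoint of the highest site stayed inside the reported site in 40 of 40 alternatives, at 49.425 to 49.5 Mb on G. barbadense A08, 26.8 to 27.0 Mb on D08, 51.9 to 51.975 Mb on G. hirsutum A08 and 15.35 to 15.4 Mb on D08. The site of G. hirsutum D08 was distinct from the next in 7 of 11 settings, that of G. barbadense A08 in 11, and those of G. barbadense D08 and G. hirsutum A08 in 10 each. The pooled ratio moved out of its interval in 28 alternatives, which change the bounds of the site or the islands kept, and stayed inside it in 20. With covered length it was 13.7 (G. barbadense A08), 14.7 (G. barbadense D08) and 10.7 (G. hirsutum A08). With ChIP minus scaled input it was 21.9 on G. barbadense A08, 26.0 on D08 and 10.7 on G. hirsutum A08. With islands of ratio 4 or more it was 24.1 and 25.2 on G. barbadense A08 and D08, and 10.7 and 5.68 on G. hirsutum A08 and D08. With ratio 8 or more it was 28.95 and 30.8 in G. barbadense, and 14.2 and 8.17 in G. hirsutum, for A08 and D08. Both settings keep only islands above a limit, so their pooled ratios are high by choice. On G. hirsutum D08 they left 5 islands (ratio 4) and 1 island (ratio 8) in the site. The setting with 1 island counts among the 40 alternatives and the 7 distinct settings. At a false discovery rate of 1e-10 it was 20.7 and 22.6 in G. barbadense and 3.14 on G. hirsutum D08. Bins of 50 kb gave 22.4 on G. barbadense A08 and 10.8 on G. hirsutum A08. Bins of 200 kb gave 17.0 and 18.5 in G. barbadense, and 9.24 and 2.65 in G. hirsutum. A running mean of 3 bins gave 21.9 and 10.7 on A08 of G. barbadense and G. hirsutum. A threshold midway between median and maximum gave 28.3 on G. barbadense A08, 26.0 on D08 and 10.7 on G. hirsutum A08. Strong islands with 40 or more ChIP reads numbered 293 and 354 on G. barbadense A08 and D08, and 279 and 50 on G. hirsutum A08 and D08. At a ratio of 8 the counts were 399, 506, 149 and 23, and an input floor of 10 reads gave 84 on G. hirsutum D08. The A to D density ratio reversed in G. barbadense, at 0.595 with strong islands and 0.536 at the stricter false discovery rate, against 1.06 with all islands. In G. hirsutum it was 1.73 and 1.89, against 1.62 with all islands. The cause was not tested. Taking input reads as pairs was added after the data had been seen. No paired analysis was possible because each species had 1 ChIP library and no replicate numbers. Input counts of 10 or fewer in site islands limit single ratios, and stretches without islands have no read counts.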

Other observations

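Islands of a single 200 bp window were more frequent in the sites, at 7.74% on G. barbadense A08, 7.67% on D08 and 3.65% on G. hirsutum A08, against 2.51%, 2.74% and 0.581% outside them. Islands over 5 kb were also more frequent there, at 5.95%, 4.29% and 5.11%, against 0.756%, 1.28% and 3.40% outside. Both classes thus made up a larger share of site islands on these 3 chromosomes. On G. hirsutum A08 the counts were small, at 5 and 7 of 137 site islands. Of its islands over 10 kb, 0 lay in the site and 7 outside. In the G. hirsutum D08 site 11 of 41 islands were over 5 kb (26.8%), against 3.26% elsewhere on that chromosome.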
